A study of Homo sapiens with 7 samples.

Results

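Megabase windows of the human genome in which SP1 ChIP-seq gave no peak were examined in HCT116, an established colon adenocarcinoma cell line. The windows were 1 Mb long, did not overlap and were fixed from coordinate 1 of chromosomes 1 to 22 of hg18. A window was included when it overlapped none of the 27015 peaks of the deposited SP1 list and held 10 or more distinct positions over the 3 insertion libraries of the wild-type piggyBac transposase (WT_PB). This rule gave 559 windows, 20.6% of the 2716 autosomal windows with that many WT_PB positions. The other 2157 windows held at least 1 peak and served for comparison. WT_PB counts and the peak list chose the windows and are described without a test on that choice. Positions of SP1_PB, the fusion of SP1 to the transposase (2 libraries), took no part in it.

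PiggyBac is a cut-and-paste transposon that inserts at TTAA sites, and the wild-type transposase is known to favour accessible chromatin near active genes. In the calling card method a factor joined to the transposase directs part of the insertions to its own binding sites, where they can be read out later. SP1 is a zinc finger factor that binds GC-rich promoter sequences, and the genome has long gene-poor stretches in which such promoters are few. A window without a peak is one in which the deposited list has none; neither the labels nor the readme state its threshold or control, so weaker binding cannot be told apart from none. The wild-type libraries give the background of the fused enzyme. All 5 insertion libraries came from HCT116 cells carrying an integrated transposon and selected with G418, whose genomic DNA was cut with 3 restriction enzymes before inverse PCR. The remaining samples are 1 SP1 ChIP-seq sample and 1 RNA-seq library of HCT116 cells. Nothing in the labels ties the replicates to separate cultures. P-values of tests over libraries therefore measure the spread between these libraries, which may be technical.

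The WT_PB libraries held 57419 to 67423 distinct positions and the SP1_PB libraries 14467 and 18856. In the RNA library the epithelial keratins KRT8, KRT18 and KRT19 stood at 378, 268 and 543 RPKM and the epithelial adhesion gene EPCAM at 79.5 RPKM. The leukocyte genes PTPRC and CD3E were listed at 0, the fibroblast collagen COL1A1 at 14.5 RPKM and VIL1, a brush border gene of enterocytes, at 0.0313 RPKM.

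Windows without a peak were found on every autosome except chromosome 22. Chromosome 4 held the most, with 49, followed by chromosome 2 with 48 and chromosomes 3 and 5 with 44 each. Chromosomes 2 to 5 together held 185 of the 559 (33.1%). These chromosomes also had many windows, and 20.2%, 22.45%, 25.8% and 24.6% of their own lacked a peak, against 20.6% over all autosomes. Relative to a chromosome's own windows the order was different. On chromosome 21 15 of 36 windows lacked a peak (41.7%), on chromosome 18 28 of 77 (36.4%) and on chromosome 13 33 of 96 (34.4%). Chromosomes 17 and 19 stood at the other end, with 4 of 79 (5.06%) and 3 of 57 (5.26%), and all 36 windows of chromosome 22 held a peak.

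**Figure D1:**
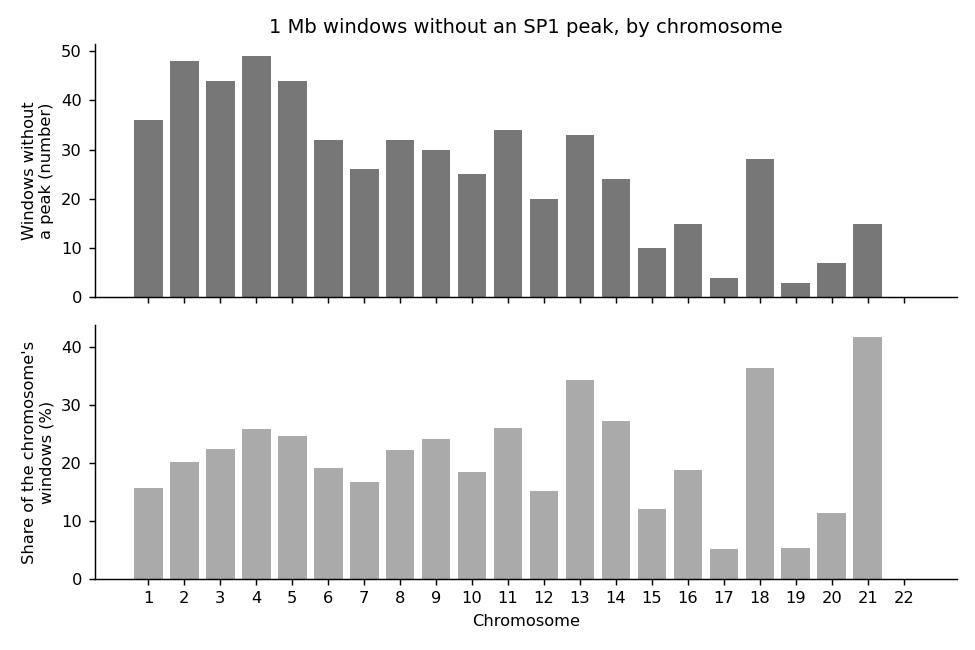
Number of 1 Mb windows without an SP1 peak on each autosome (upper bars) and their share of the chromosome's windows with at least 10 distinct WT_PB positions, in percent (lower bars). Chromosome 4 holds the most windows (49), chromosome 21 has the highest share (41.7%), and chromosome 22 has none.

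The windows often adjoined each other. They formed 307 runs, of which 188 were single windows and 119 had 2 or more, and the latter held 371 windows (66.4%). A run also ended where a window lacking a peak fell short of the WT_PB minimum. This was so on chromosome 2 from 77 to 78 Mb, between a single window and a run. The longest run covered 10 windows, on chromosome 4 from 58 to 68 Mb, and the next covered 9, on chromosome 5 from 22 to 31 Mb. Runs of 7 lay on chromosome 14 from 81 to 88 Mb and on chromosome 18 from 34 to 41 Mb. There were 7 runs of 6 windows, 2 of them on chromosome 13 and 1 each on chromosomes 1, 4, 11, 16 and 21. The centre of a window lay 500.1 to 5068 kb from the edge of the nearest peak, with a median of 931 kb, and 81 windows had their centre over 2 Mb away. The windows farthest from any peak lay inside the 2 longest runs, on chromosome 5 from 26 to 27 Mb and on chromosome 4 at 62 to 63 and 63 to 64 Mb, with 5068, 4953 and 4593 kb.

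The minimum of 10 WT_PB positions removed few windows. Without it 570 autosomal windows with any position lacked a peak, and 11 of these were below the minimum. Just inside it, 1 window had 10 and 8 had 11 distinct WT_PB positions, with 1 and 0 SP1_PB positions in all. Just outside, 2 windows had 9 and 1 had 8, with 0 and 1 SP1_PB positions. The median window without a peak held 29 distinct WT_PB positions, the richest 646, and the median window with a peak 66.

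Both transposases inserted less often into windows without a peak than into windows with one, and the fused enzyme far less often. The 559 windows held 6240, 7332 and 6636 positions of the WT_PB libraries, which is 10.6%, 10.9% and 11.6% of each library. They held 519 and 384 positions of the SP1_PB libraries, 2.75% and 2.65%. The SP1_PB libraries were close to each other and both lay far below every WT_PB library. The mean share was 11.01% ± 0.492 for WT_PB (SD, n = 3) and 2.70% ± 0.0694 for SP1_PB (SD, n = 2). The ratio of the pooled shares, SP1_PB over WT_PB, was 0.246 (95% log-normal interval 0.231 to 0.263), and over the 6 pairs of libraries it ran from 0.230 to 0.260. An exact permutation test over the 5 libraries (two-sided) gave p = 0.1, the lowest value possible with 10 splits. Intervals cover the counting error of pooled positions only, not the spread between libraries. The reads come from PCR and carry no molecular identifiers.

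The ratio depended little on the minimum of WT_PB positions by which the windows were chosen. Without it the ratio was 0.246. With windows chosen on a pair of WT_PB libraries and SP1_PB compared with the WT_PB library not used, it was 0.258, 0.251 and 0.237. Since all shares of 1 library add up to 100%, more SP1_PB positions near peaks leave a lower share for every other region, and the number of insertions in a cell was not measured.

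Density per window shows the same order within each library. Per 10000 positions of the library, a window without a peak held on average 1.90, 1.95 and 2.07 positions of the WT_PB libraries and 0.492 and 0.475 positions of the SP1_PB libraries. A window with a peak held 4.03, 4.01 and 3.93 and, for SP1_PB, 4.39 and 4.40. Windows with a peak were thus 2.03 ± 0.114 times as dense in WT_PB positions (SD, n = 3) and 9.10 ± 0.246 times as dense in SP1_PB positions (SD, n = 2), with an exact permutation p of 0.1, again the smallest possible.

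**Figure D2:**
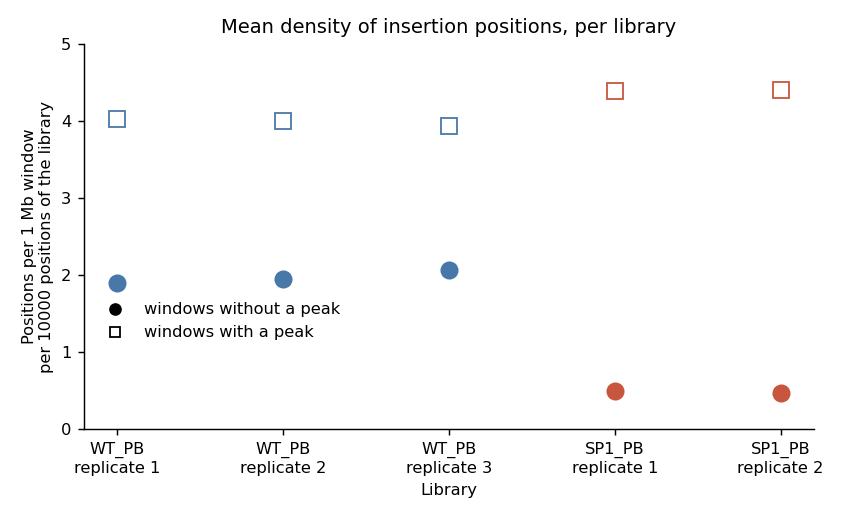
Mean number of positions per 1 Mb window, per 10000 positions of the library, in each of the 5 libraries (WT_PB in blue, SP1_PB in red). Filled circles are the 559 windows without a peak and open squares the 2157 windows with one; the SP1_PB circles lie at 0.492 and 0.475, the WT_PB circles between 1.90 and 2.07.

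By raw count a window without a peak held a median of 9, 11 and 10 positions in the WT_PB libraries and of 0 in each SP1_PB library. SP1_PB replicate 1 had no position in 285 of the 559 windows (51.0%) and replicate 2 in 329 (58.9%). In 182 windows (32.6%) neither library had one, and in 127 both did. Of windows with a peak, 60 (2.78%) had no SP1_PB position. These numbers depend on depth: 0 positions of 33323 allow up to 3 in a window.

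The windows without a peak were at the low end of a graded relation with the number of peaks in the window. The share ratio was 0.246 with no peak, 0.326 (0.305 to 0.348) in the 261 windows with 1 peak and 0.527 in the 408 windows with 2 to 3. It was 0.735 with 4 to 7 peaks, 1.09 with 8 to 15, 1.57 with 16 to 31 and 3.22 (3.14 to 3.29) in the 211 windows with 32 or more. The intervals of neighbouring groups did not overlap. The WT_PB count per window rose up to 8 to 15 peaks and was lower beyond, at 36.2, 56.9, 63.8, 75.4, 86.1, 78.1 and 76.2 positions over the 3 libraries. The SP1_PB count rose at every step, from 1.62 to 3.36, 6.10, 10.0, 17.0, 22.2 and 44.5 positions over both libraries. These groups were formed after the data had been seen and are given without a test.

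**Figure D3:**
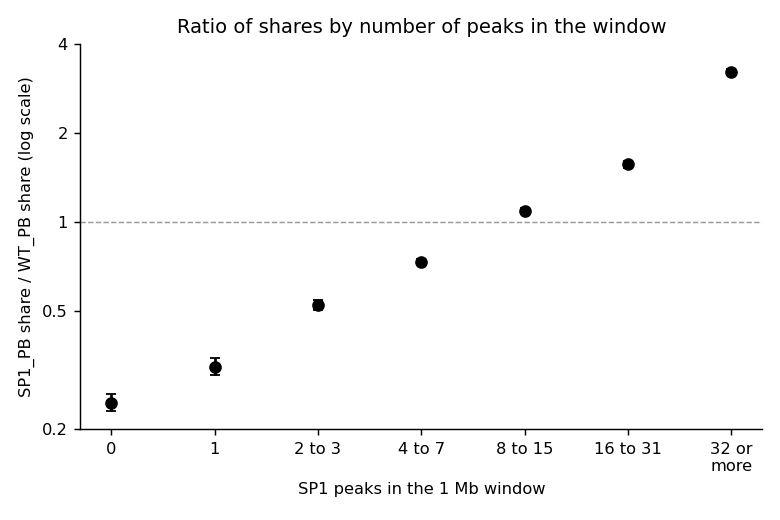
Ratio of the pooled SP1_PB share to the pooled WT_PB share (log scale) in autosomal 1 Mb windows grouped by their number of SP1 peaks; bars are 95% log-normal intervals and the dashed line marks equal shares. The ratio climbs from 0.246 in windows without a peak to 3.22 in windows with 32 or more.

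Windows with like WT_PB counts still differed in SP1_PB counts. Among windows with 20 to 29 distinct WT_PB positions, the 184 without a peak held 1.07 ± 1.31 SP1_PB positions (SD over windows) and the 65 with a peak 2.58 ± 3.46. With 40 to 59 distinct WT_PB positions the 137 without a peak held 2.20 ± 2.07 and the 607 with a peak 9.59 ± 11.05. With 60 to 99 the 35 without a peak held 2.91 ± 2.24 and the 1023 with a peak 17.5 ± 16.1. Each SP1_PB library gave the same order in these 3 groups, for example 1.22 against 5.39 positions in replicate 1 and 0.978 against 4.20 in replicate 2 at 40 to 59. Windows of 1 library are not replicates, so no test was made.

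The ratio of the SP1_PB share to the WT_PB share fell with distance to the nearest peak also within windows that lack one. In windows without a peak the ratio was 0.366 (0.295 to 0.456) for positions 100 to 250 kb from a peak and 0.274 (0.234 to 0.320) at 250 to 500 kb. It was 0.257 (0.230 to 0.287) at 500 to 1000 kb and 0.198 (0.176 to 0.222) beyond 1000 kb. At most 100 kb from a peak it was 0.523 (0.350 to 0.782), from 26 SP1_PB positions. Beyond 1000 kb there was no further ordered fall, with 0.204 (0.174 to 0.239) at 1000 to 1500 kb, 0.158 (0.1197 to 0.208) at 1500 to 2000 kb and 0.220 (0.177 to 0.272) past 2000 kb, where 2159 WT_PB and 86 SP1_PB positions remained.

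At most 100 kb from a peak the classes differed: windows with a peak had a ratio of 1.41 (1.40 to 1.41), and the ratio without a peak divided by that with a peak was 0.372 (0.249 to 0.557). Windows with a peak include the peaks themselves and the positions next to them, and windows without one do not. From 100 kb outward the ratios of windows with a peak were closer to those without. They stood at 0.431 (0.413 to 0.449) at 100 to 250 kb, 0.289 (0.268 to 0.311) at 250 to 500 kb and 0.243 (0.208 to 0.283) at 500 to 1000 kb. The same quotient was 0.850 (0.681 to 1.06), 0.949 (0.797 to 1.13) and 1.06 (0.877 to 1.28). Each interval includes equality, which does not show that the classes were alike. By library, windows without a peak held 3.46% and 4.03% of the SP1_PB positions at 100 to 250 kb against 4.12%, 4.49% and 4.31% for WT_PB, and 18.8% and 17.7% against 18.9%, 18.9% and 19.7% at 250 to 500 kb. At 500 to 1000 kb SP1_PB was the higher, with 66.0% and 66.5% against 64.4%, 65.5% and 64.8%. The libraries did not overlap in any of these ranges, and the direction was not the same in all of them. Within the closest range, at 50 to 100 kb, the quotient was 1.04 (0.658 to 1.66), and at 10 to 50 kb, where windows without a peak had only 6 SP1_PB positions, 0.577 (0.251 to 1.32). The decline of the ratio with distance was already known from earlier results of these data.

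**Figure D4:**
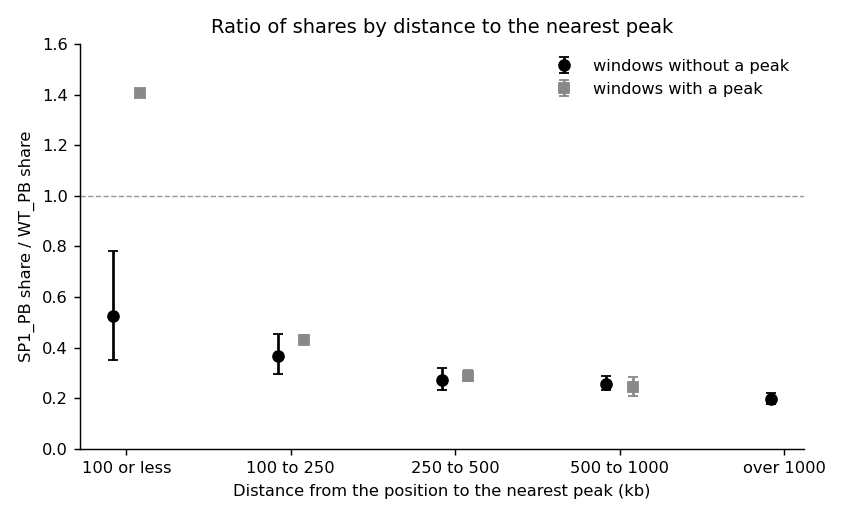
Ratio of the pooled SP1_PB share to the pooled WT_PB share by the distance of the positions to the nearest SP1 peak in kb, in windows without a peak (black circles) and with a peak (grey squares); bars are 95% log-normal intervals and the dashed line marks equal shares. From 100 kb outward both classes fall together, from 0.366 and 0.431 to 0.257 and 0.243, and only windows without a peak reach beyond 1000 kb (0.198).

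Taken against positions over 100 kb from any peak instead of all positions, the deficit was smaller. Of 70139 such WT_PB positions 19934 lay in windows without a peak, and of 4387 such SP1_PB positions 877. The library shares were 28.4% ± 0.265 for WT_PB (SD, n = 3) and 20.03% ± 0.316 for SP1_PB (SD, n = 2), and no SP1_PB library reached a WT_PB library. The ratio was 0.703 (0.662 to 0.747, exact permutation p = 0.1). It is not matched for distance. In windows without a peak 8171 of the 19934 WT_PB positions lay beyond 1000 kb, which windows with a peak do not reach. Within the distance ranges given above, the quotients of both classes were 0.850, 0.949 and 1.06, and each interval included equality. Limited to positions 100 to 500 kb from a peak it was 0.772. Among all positions over 10 kb from a peak it was 0.480, so the size of the deficit depended on which positions it was taken against.

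Longer runs were poorer in WT_PB positions, and past single windows the SP1_PB ratio did not fall further with run length. Single windows held a mean of 43.1 WT_PB positions over the 3 libraries, windows in runs of 2 held 39.5 and in runs of 3 to 4 32.1. Windows in runs of 5 to 7 held 27.1 and in the 2 longest runs 21.6. Of the 4736 WT_PB positions in runs of 2, 705 lay in 1 window, on chromosome 4 from 30 to 31 Mb, which raises that mean. The ratio was 0.288 (0.262 to 0.318) in single windows, then 0.219, 0.219, 0.214 and, from 17 SP1_PB positions, 0.229 (0.141 to 0.371). The 10 windows of chromosome 4 from 58 to 68 Mb held 68, 60 and 88 WT_PB positions and 2 and 3 SP1_PB positions, a ratio of 0.128 (0.0526 to 0.310), and 6 of them had no SP1_PB position. The 9 windows of chromosome 5 from 22 to 31 Mb held 54, 70 and 70 against 5 and 7, a ratio of 0.341 (0.190 to 0.611). Both runs were equally thin in WT_PB positions, at 21.6 per window, and their SP1_PB intervals overlap. Among the 7 runs of 6 windows the ratio ran from 0.0793 (0.0196 to 0.320) on chromosome 13 from 53 to 59 Mb, with 46, 43 and 50 WT_PB positions against 0 and 2, to 0.540 (0.312 to 0.934) on chromosome 1 from 102 to 108 Mb, with 41, 54 and 48 against 7 and 7. The run on chromosome 1 stood above the other 6, which reached 0.272. On chromosome 14 from 81 to 88 Mb the ratio was 0.300 and on chromosome 18 from 34 to 41 Mb 0.256, from 10 and 8 SP1_PB positions.

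On each of the 21 chromosomes with such windows the ratio in windows without a peak was below that in the same chromosome's windows with a peak. Over the 15 chromosomes with at least 20 windows without a peak it ran from 0.166 (0.117 to 0.236) on chromosome 8 to 0.356 (0.275 to 0.461) on chromosome 11. Chromosome 4 stood at 0.179 (0.146 to 0.221) and chromosome 3 at 0.323 (0.260 to 0.402). Windows with a peak on the same 15 chromosomes ran from 0.669 on chromosome 4 to 1.30 on chromosome 11.

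Single windows were compared with edgeR's quasi-likelihood test on distinct positions per window, fitted over all 2892 windows of the genome with at least 10 positions over the 5 libraries. After Benjamini-Hochberg adjustment 185 of the 559 windows without a peak (33.1%) had fewer SP1_PB positions relative to library totals and 0 had more. Over all windows tested 18.7% were called lower and 11% higher, and of windows with a peak 345 (15.99%) were lower and 311 (14.4%) higher. No window without a peak was higher at an unadjusted p under 0.05 either, and DESeq2 and Fisher's exact test also called 0 higher. The median log2 difference, SP1_PB minus WT_PB, was -2.24 over windows without a peak, -0.37 over windows with a peak and -0.71 over all. With windows that lack SP1_PB positions set to a floor of 3 positions over both libraries, the medians were -1.39 without a peak and -0.54 over all.

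The number of single windows called was sensitive to the libraries and the test. The pooled ratio kept its direction in every alternative, although its size changed as well. Without SP1_PB replicate 1 36 windows without a peak were called lower (6.44%, against 5.12% of all windows) and without SP1_PB replicate 2 57 (10.2% against 6.61%). With the replicate number as a block 70 were called (12.5% against 9.89%). In these fits the share called was close to that over all windows. DESeq2 called 23 of the 450 windows without a peak to which it gave an adjusted p, and over all 2723 such windows 2.72% lower and 9.03% higher. Fisher's exact test on pooled positions called 119, all of them among the 185, against 15.2% lower and 11.5% higher over all windows. The balance of calls over the whole genome changed with the scaling and the test. Of all edgeR calls 542 were lower and 319 higher with library totals, and 342 and 377 with TMM. DESeq2, which differs in its test as well as its size factors, gave 74 and 246, and which of these mattered was not tested. In edgeR with the number of positions over 10 kb from any peak as the library size, 79 were lower and 730 higher. With that size 30 windows without a peak were lower and 2 higher, and the median log2 difference over all windows was 0.24.

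Calls were concentrated in windows with many WT_PB positions. None of the 99 windows with 10 to 19 distinct WT_PB positions was called, 52 of 184 with 20 to 29, 24 of 97 with 30 to 39, 71 of 137 with 40 to 59, 31 of 35 with 60 to 99 and all 7 with 100 or more. Of the 185 called windows 104 had no SP1_PB position, and each window without an SP1_PB position and with at least 23 WT_PB positions was called. Fisher's exact test called only 119 of the 185, so whether a window was called also depended on the test. The number of calls is therefore not the number of windows with a low share.

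**Figure D5:**
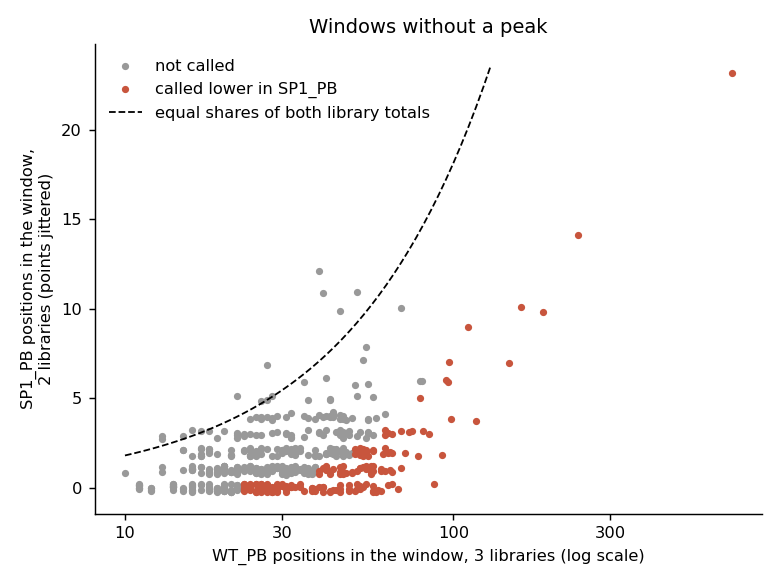
WT_PB positions over 3 libraries (log scale) and SP1_PB positions over 2 libraries in each of the 559 windows without a peak; points are jittered vertically by up to 0.25, red points were called lower in SP1_PB by edgeR, and the dashed line marks equal shares of both library totals. By their values before jittering 12 windows lie above the line, and none of these was called.

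The window with the most WT_PB positions was also the one with the most SP1_PB positions. Chromosome 4 from 30 to 31 Mb held 252, 266 and 187 WT_PB positions and 14 and 9 of SP1_PB. All 3 WT_PB libraries were high there, where the next richest window without a peak had 240 positions in total and the richest with a peak 410. Its ratio was 0.180 (0.119 to 0.272). Its positions were concentrated: from 30.3 to 30.7 Mb lay 624 of its 705 WT_PB positions (88.5%) and 19 of its 23 SP1_PB positions (82.6%), and no other 100 kb stretch of it held more than 26 WT_PB positions. The centre of the window was 1142 kb from the nearest peak.

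The next windows by WT_PB count are given as a description, since the WT_PB count that chose them is also the denominator of the ratio. Chromosome 2 from 226 to 227 Mb held 81, 95 and 64 WT_PB positions against 5 and 9 of SP1_PB, a ratio of 0.322 (0.188 to 0.551). Chromosome 1 from 66 to 67 Mb held 77, 61 and 49 against 7 and 3, with a ratio of 0.295. Chromosome 6 from 145 to 146 Mb held 49, 62 and 49 against 7 and 3, with 0.345, and chromosome 3 from 111 to 112 Mb 53, 63 and 32 against 4 and 3, with 0.261. In each of them the 3 WT_PB libraries and both SP1_PB libraries had positions. The 7 windows with at least 100 distinct WT_PB positions had ratios from 0.180 to 0.447.

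Of the 10 windows without a peak with the smallest p-values among the lower calls, 6 had no SP1_PB position. Chromosome 12 from 76 to 77 Mb held 29, 30 and 28 WT_PB positions and none of SP1_PB, at least 5.26-fold lower against the floor of 3 SP1_PB positions over both libraries (edgeR adjusted p = 6.57e-06). Chromosome 4 from 157 to 158 Mb held 16, 27 and 25 (at least 4.11-fold lower) and from 162 to 163 Mb 18, 30 and 17 (at least 3.93-fold). Chromosome 2 from 212 to 213 Mb held 15, 21 and 27 (at least 3.81-fold) and from 52 to 53 Mb 21, 21 and 18 (at least 3.63-fold). Chromosome 1 from 194 to 195 Mb held 21, 19 and 19 WT_PB positions and none of SP1_PB. Every WT_PB library had at least 15 positions in each of these windows, and edgeR adjusted p-values ran from 6.57e-06 to 4.97e-04. On chromosome 1 from 141 to 142 Mb 26, 28 and 38 stood against 2 and 0 (ratio 0.1198, 0.0295 to 0.486).

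In a few windows the pooled SP1_PB share was not below that of WT_PB. Of the 559, 12 had a pooled ratio above 1. They are the upper end of mostly small counts, and some of them held only 3 SP1_PB positions. Among the 12, the highest counts were on chromosome 3 from 145 to 146 Mb. It held 10, 15 and 14 WT_PB positions against 7 and 5 of SP1_PB, a ratio of 1.70 (0.888 to 3.24, edgeR adjusted p = 0.276). Chromosome 1 from 162 to 163 Mb held 15, 16 and 9 against 8 and 3 (1.52, 0.778 to 2.95), and chromosome 7 from 46 to 47 Mb 13, 24 and 14 against 6 and 5 (1.19, 0.620 to 2.28). None of the 3 differed beyond its error from the genome-wide rate, which does not show that they were at that rate. With positions over 10 kb from any peak as the library size, those on chromosomes 3 and 1 were the 2 windows called higher, with log2 differences of 1.71 and 1.55 (edgeR adjusted p = 0.0142 and 0.0347). With positions within 1 kb merged, the first turned to a log2 difference of -0.19.

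WT_PB counts were more unequal over windows without a peak than over windows with one, and less so once 1 window was left out. The spread beyond counting error, given as a fraction of the mean, was 1.11, 1.01 and 0.790 for the WT_PB libraries without a peak and 0.525, 0.537 and 0.448 with a peak. Without the window on chromosome 4 it fell to 0.651, 0.611 and 0.499 in windows without a peak. The SP1_PB libraries had like spreads in both classes, at 1.11 and 1.09 without a peak and 0.999 and 1.05 with one, and 0.980 and 1.00 without that window. The 10 windows richest in SP1_PB held 120 of the 903 positions (13.3%).

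The SP1_PB libraries resembled each other less in windows without a peak. Across the 559 windows the counts of both SP1_PB libraries had a Pearson's r of 0.394 and a Spearman's rho of 0.175, against 0.871 and 0.792 over the 2157 windows with a peak. Counts of WT_PB replicates 1 and 2 had 0.931 and 0.638 without a peak and 0.878 and 0.756 with one. Pooled SP1_PB and WT_PB counts had an r of 0.637 without a peak, 0.544 when the richest window was left out, and 0.344 with a peak. These are descriptions across windows, which share mappability, TTAA content and library, and SP1_PB counts without a peak were mostly 0 to 2.

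Identical positions were also rarer. In windows without a peak 16 positions occurred in both SP1_PB libraries, 4.17% of the smaller and 3.08% of the larger set, against 2867 in windows with a peak, 20.9% and 16.04%. The latter were also 9.10 times as dense in SP1_PB positions, and these shares were not adjusted for density. Pairs of WT_PB libraries shared 74 to 164 positions without a peak, 1.19% to 2.63% of the smaller set, and 3.30% to 4.41% with a peak. Positions of a library within 3 bp of each other made up 10.8% and 11.2% of the SP1_PB positions without a peak and 23.6% and 29.6% with one, and for WT_PB 4.81% to 7.57% and 8.12% to 10.7%. Such neighbours may be 1 site counted more than once, so the SP1_PB counts of windows with a peak are the most affected. With them merged the ratio without a peak was 0.265.

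SP1_PB positions in windows without a peak carried fewer reads. Their median was 3 and 5 reads in replicates 1 and 2, against 6 and 14 in windows with a peak, and 33.7% and 29.7% had a single read, against 23.9% and 18.7%. WT_PB positions differed less, with medians of 3, 4 and 2 against 3, 4 and 3, and single reads in 31.5%, 28.6% and 39.9% against 29.8%, 26.8% and 33.1%. The share of WT_PB replicate 3, the highest of the 3 with all positions, was not above the others among positions with 10 or more reads, at 10.1% against 9.88% and 10.1%. At that depth the SP1_PB shares were 2.17% and 2.10% and the ratio 0.213 (0.191 to 0.237), from 345 SP1_PB positions. What part single-read positions have in the counts of windows without a peak was not tested beyond these values.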

How the data were processed

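Insertion libraries of WT_PB (3) and SP1_PB (2), an SP1 ChIP-seq peak list and an RNA-seq table were used. The deposited insertion files list for each position its count of reads, not normalized, aligned to hg18 with Bowtie (0.12.7, per the submitters' processing notes). Chromosome codes 23 and 24 were read as X and Y. Strand and filters: not given in the sources used here. Lines at 1 position were merged, and a position was taken as 1 insertion regardless of its reads. Peaks came from MACS, per the deposited readme, and the authors' score per peak, of unstated scale, served only for 1 alternative. The deposited RPKM values (TopHat, Cufflinks 1.1.0, per the submitters' processing notes) served only for a check of cell type genes. No hg18 genome or annotation was used, so windows carry no gene names or sequences. Distances run to the nearest peak edge.

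Shares were compared with exact permutation tests (two-sided) and 95% log-normal intervals, and windows with edgeR 4.0.16, with positions in a library as its size, at an adjusted p under 0.05. DESeq2 1.42.0, Fisher's exact test, other scalings, counting rules, window definitions and left-out libraries were alternatives. With Fisher's exact test a window was called only where both SP1_PB libraries deviated from the pooled WT_PB share in the same direction. Named windows were those with the most WT_PB or SP1_PB positions (5 each), the smallest p among lower (10) and higher (5) calls, no SP1_PB position with the most WT_PB positions (5), the greatest distance (3), and the 5 longest runs, the fifth taken by chromosome order among 7 of equal length. The windows, this rule and the tests were chosen with earlier results of these data known.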

Additional observations from a re-analysis of the deposited data

How the results depend on the processing

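The share in windows without a peak was lower for SP1_PB than for WT_PB under every alternative run for it. The ratio of 0.246 became 0.265 with positions within 3 bp merged, 0.290 within 1 kb, 0.278 without positions in more than 1 library, 0.223 with 2 or more reads and 0.213 with 10 or more (chosen after seeing the data). It was 0.231 with windows shifted by 500 kb, 0.207 in 2 Mb windows, 0.285 with only the peaks scoring above the median, 0.230 with no peak within 100 kb, and 0.258 for windows chosen without WT_PB library 1. Leaving out each library gave 0.241 to 0.252. Among positions over 100 kb from any peak the ratio of 0.703 became 0.717, 0.730 and 0.715 under the first 3 of these, 0.663 with 2 or more reads, 0.668 shifted, 0.723 in 500 kb and 0.583 in 2 Mb windows, 0.728 with the peaks above the median and 0.666 with no peak within 100 kb. It was 0.480 over 10 kb and 0.772 at 100 to 500 kb, and 0.697 to 0.713 leaving out each library. There were 1512 windows without a peak at 500 kb and 139 at 2 Mb.

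The 185 windows called lower (33.1%, against 18.7% of all windows) became 94 (16.9% against 9.03%) with positions within 1 kb merged, 73 (13.1% against 9.06%) without positions in more than 1 library, 112 (21.1% against 13.4%) with 2 or more reads, 116 (20.7% against 11.8%) with TMM, 30 (5.37% against 2.73%, and 2 higher) with positions over 10 kb from peaks as library size, 23 with DESeq2, 119 (21.3% against 15.2%) with Fisher's exact test, and 36 to 153 leaving out each library. For DESeq2 the 23 were of 450 windows without a peak that had an adjusted p, against 2.72% of all such windows. Leaving out WT_PB libraries 1, 2 and 3 in turn, 25.5%, 27.2% and 28.6% of windows without a peak were called lower. Over all windows the shares were 14.75%, 14.97% and 17.08%. The cause of the losses of called windows was not tested. The spread of pooled WT_PB counts beyond counting error, 0.963, was 0.777 with shifted windows, 0.446 in 2 Mb windows and 0.579 without the richest window (added after seeing the data). That of SP1_PB, 1.05, was 1.00 with at least 20 WT_PB positions, 1.14 shifted, 1.35 in 500 kb and 0.757 in 2 Mb windows, 1.08 with no peak within 100 kb and 0.917 without the richest window. Log2 differences of uncalled windows turned on chromosome 3 at 145 Mb (-0.19, within 1 kb merged), chromosome 1 at 162 Mb (-0.068 without SP1_PB replicate 1, and up to 0.96 leaving out others), chromosome 7 at 46 Mb (-0.17, 2 or more reads), chromosome 14 at 81 Mb (0.15 with positions over 10 kb from peaks as library size, -5.99 to 0.012 leaving out each library, highest without SP1_PB replicate 2) and chromosome 1 at 102 Mb (0.42 with that size, -1.26 to 0.077 leaving out each library, highest without SP1_PB replicate 1).

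With the replicate number as a block 70 windows without a peak were called lower (12.5% against 9.89%), and the ratios were 0.252 and 0.708. Same-numbered libraries did not deviate together (correlations of 0.0328 and -0.0153 across 2892 windows), so the number is not shown to pair them. SP1_PB depth limits single windows, since a median window without a peak held 1 SP1_PB position.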

Other observations

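SP1_PB positions in windows without a peak lay near WT_PB positions more often than WT_PB positions of another library did. Within 1 kb of a position of a pair of WT_PB libraries lay 27.2% and 24.3% of the positions of the SP1_PB libraries (means over the 3 pairs), against 17.3%, 16.2% and 14.1% of those of the WT_PB library left out of the pair. In windows with a peak the values were 38.99% and 37.8% against 29.4%, 27.9% and 27.2%. In both classes every SP1_PB library exceeded every WT_PB library (exact permutation p = 0.1 each, the smallest possible). Each WT_PB value rests on 1 pair and each SP1_PB value on 3, and the pairs share libraries. These values are therefore not exchangeable, and no conclusion is drawn from that p-value. The SP1_PB libraries differed in exact matches. In windows without a peak 74 of 519 positions of replicate 1 (14.3%) were also WT_PB positions, against 23 of 384 (5.99%) in replicate 2, while with a peak the shares were 13.8% and 12.3%. The matching positions of replicate 1 had a median of 4.5 reads and its other positions 3.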
